A study of Mus musculus with 10 samples.

Results

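The 8 genes described here encode 7 inhibitory surface proteins of T cells, Pdcd1, Havcr2, Lag3, Tigit, Ctla4, Cd160 and Entpd1, and Tox, a transcription factor that sustains the state in which these proteins stay on the cell. They were taken by name from the 32285 genes of a single-cell RNA matrix of mouse lung tumours, and all 8 were found in it. Tumours had grown from KP cells, a mouse lung adenocarcinoma line, given through a vein to mice of the same strain. Tumour-bearing mice then received treatment for 11 days, and each group held 3 mice: SHP099 with SX682 (the combination), SHP099 alone, SX682 alone, or vehicle. SHP099 inhibits SHP2, a phosphatase that binds the tail of several inhibitory receptors. SX682 is an inhibitor of CXCR1 and CXCR2, chemokine receptors of neutrophils. Strain and age are not stated in the labels used here.

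After SHP099, Tigit and Cd160 were called lower than with vehicle (adjusted p below 0.05) in CD8 T cells. Ctla4 was called lower in the T cell state that carries Foxp3, both after SHP099 and after the combination. Each of these calls was lost when vehicle mouse 3 was left out. Cd160 kept its call in 8 of 12 fits with 1 mouse left out, and its treatment groups overlapped. Under the filter on low counts, Pdcd1, Lag3, Entpd1 and Tox were not called in any class that tested them. These classes were CD8 T cells for all 4 genes, and the CD8 state T9 for Pdcd1, Lag3 and Tox. Entpd1 was also tested in NK cluster 6, and Tox in T cell states T3 and T6. Havcr2 was too low to be tested. Among the T cell states and NK clusters, Pdcd1, Lag3, Tigit, Cd160 and Tox had their highest mean level in 1 CD8 state, T9. For Tigit and Cd160 the lead of T9 was within the SD over mice, and Tigit was higher in T9 than in T6 in 3 of 8 mice.

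Inhibitory receptors restrain T cells after their antigen receptor has been engaged. PD-1, the product of Pdcd1, and CTLA-4 bind ligands of the B7 family. LAG-3 binds MHC class II among other ligands, and TIM-3, the product of Havcr2, binds several ligands including galectin-9. TIGIT competes with the activating receptor CD226 for CD155, and CD160 binds the herpesvirus entry mediator. CD39, the product of Entpd1, is an enzyme that degrades extracellular ATP on the way to adenosine. A T cell that meets antigen for a long time in a tumour can come to carry several of these proteins together with TOX, regulatory T cells carry CTLA-4 and TIGIT as part of their normal program, and NK cells carry TIGIT and CD160.

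The genes lie on 6 chromosomes of the mouse build GRCm38 (mm10), in the GENCODE vM21 annotation. Tigit lies on the minus strand of chromosome 16 from 43648867 to 43664146, and Cd160 on the minus strand of chromosome 3 from 96798763 to 96829351. Ctla4, on the plus strand from 60887000 to 60915832, and Pdcd1, on the minus strand from 94038305 to 94052553, share chromosome 1. Lag3 lies on chromosome 6 from 124904361 to 124911705, Havcr2 on chromosome 11 from 46454935 to 46481255, Entpd1 on chromosome 19 from 40612366 to 40741602 and Tox on chromosome 4 from 6686353 to 6991557. Cd160 overlaps Pdzk1 and Tox overlaps Gm11802 on the opposite strand, while Ctla4 contains the pseudogene Rpl18-ps1 and Entpd1 overlaps Gm16027, Gm8783 and AC166063.1 on its own strand. How the counting treated reads in these overlaps was not tested for those 4 genes.

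The 250 bases before the RefSeq start (GRCm38.p6) are shown for Tigit, Cd160 and Ctla4, the 3 genes called between treatments with all mice. They are written from 5′ to 3′ on the strand of the gene. Capitals mark the core letters of the NFAT motif, GGAAA on either strand, since NFAT factors are switched on by the T cell receptor. The windows are chr16:43664185-43664434 on the minus strand for Tigit, chr3:96829352-96829601 on the minus strand for the upstream start of Cd160, and chr1:60908775-60909024 on the plus strand for Ctla4.
Tigit: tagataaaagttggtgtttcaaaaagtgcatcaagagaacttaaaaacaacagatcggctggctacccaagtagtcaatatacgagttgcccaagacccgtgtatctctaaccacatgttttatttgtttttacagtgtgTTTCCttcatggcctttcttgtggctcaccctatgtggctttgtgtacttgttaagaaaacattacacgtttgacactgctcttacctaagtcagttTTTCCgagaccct
Cd160: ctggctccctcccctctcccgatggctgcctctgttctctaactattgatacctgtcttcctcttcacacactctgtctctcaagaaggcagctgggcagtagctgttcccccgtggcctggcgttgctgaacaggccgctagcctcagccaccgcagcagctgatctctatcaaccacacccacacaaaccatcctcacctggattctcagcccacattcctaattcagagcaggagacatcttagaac
Ctla4: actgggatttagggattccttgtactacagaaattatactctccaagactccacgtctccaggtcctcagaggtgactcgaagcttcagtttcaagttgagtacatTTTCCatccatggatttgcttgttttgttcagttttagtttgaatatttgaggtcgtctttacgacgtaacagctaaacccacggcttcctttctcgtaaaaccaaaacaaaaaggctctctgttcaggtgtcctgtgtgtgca
Tigit held 2 matches, 110 and 13 bases before its start, Ctla4 held 1, and the upstream start of Cd160 held 0, while its other start, at 96814521, held 1, 145 bases before it, in letters that 55.6% of 32851 mouse promoter windows of this length hold at least once. Neither the AP-1 letters TGANTCA nor the NR4A letters AAAGGTCA, which 6.75% and 1.34% of windows hold, were found in these 3 windows, and no match overlapped another motif. Of the 8 genes 6 have such a window in the table used, with 8 starts in all.

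The matrix held 44986 cells, of which 6570 were T cells in 9 states of the authors' T cell table, called T1 to T9 here, and 2589 were NK cells of clusters 6 and 7, called NK6 and NK7. A further 150 cells of clusters 6 and 7 are listed as T cells and were counted there. Each mouse gave 202 to 847 T cells and 111 to 361 NK cells, with a median of 1205.5 to 1867 transcripts (UMIs) per T cell. The 3 mice of a treatment were tagged, pooled and captured together, so the capture and the treatment cannot be told apart. Of 43973 distinct barcodes 1009 occurred in more than 1 pool, and 4 in 3 pools. Cells were never treated as replicates: UMIs were summed per mouse, and a level in CPM (UMIs of a gene per 1e6 UMIs) is the share of 1 gene in all UMIs of a class in 1 mouse, for mice with at least 10 cells of the class. In such sums fewer cells that carry a gene and less RNA per cell cannot be told apart.

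States were checked against marker genes. T1, T2, T3, T5 and T9 had at least 5 Cd8a and Cd8b1 UMIs for each Cd4 UMI, and these 3092 cells are the CD8 T cells. T1 carried the naive markers Lef1 and Ccr7, T2 carried Klrg1, Cx3cr1 and S1pr5, and T5 and T7 carried the cell cycle genes Mki67 and Top2a. T6 had the highest Foxp3 level, 195 CPM, with Ikzf2 and Il2ra, but held 164 UMIs of Cd8a and Cd8b1 beside 198 of Cd4, so it was not a pure CD4 class; T7 also held Foxp3, at 72.5 CPM. T8 carried Trdc and Tcrg.C1, genes of the gamma delta T cell receptor, and T4 carried Lef1 with 749 UMIs of Cd8a and Cd8b1 beside 482 of Cd4. The leading genes of T1, T4, T5 and NK6 included immunoglobulin genes, those of T4 and T6 included Sftpc, and those of T7 included the haemoglobin genes Hba.a1, Hbb.bs and Hba.a2. The part of these genes in the results was not tested. NK6 and NK7 carried Ncr1, Klrb1c and Klre1 with at most 40.2 CPM of Cd3e. Since the authors built the states from these same cells, levels of the 8 genes across states are a description and were not tested. Below, neighbours in the order of a gene's levels are said to differ where the gap between their means exceeds the larger of their SDs over mice.

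Pdcd1 was highest in T9, at 241 ± 123 CPM (SD, n = 8 mice), against 106 ± 47.5 CPM in the cycling CD8 state T5 (n = 10). This gap exceeded the SD, and in all 7 mice with both states T9 stood above T5. T8, T6, T7 and T2 followed at 82.5, 79.5, 75.4 and 65.7 CPM, an order within the SD over mice. The remaining classes were far lower, from 17.4 CPM in T4 to 0.383 CPM in NK6, where 1 Pdcd1 UMI was found in 2146 cells. T8, the state with gamma delta receptor genes, held 55 UMIs of Pdcd1 and 21 of Ctla4 in its 418 cells, but 9 of Tigit and 2 each of Lag3, Cd160 and Entpd1.

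Ctla4 was highest in T6, at 403 ± 242 CPM (SD, n = 12), and next in T7, at 331 ± 142 CPM (n = 7), followed by T9 at 213 ± 122 CPM (n = 8) and T5 at 134 ± 42.1 CPM (n = 10). T6 stood above T7 in 2 of 7 mice with both states, and the order of these 4 states was within the SD over mice. The step to the next class was not: T5 stood above T2 (55.8 CPM) in 10 of 10 mice. T4, T8, NK7, T3 and T1 lay between 36.6 and 11.8 CPM, and NK6 at 0.506 CPM.

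Lag3 stood at 287 ± 138 CPM in T9 (SD, n = 8), against 58.1 ± 43.3 CPM in T2 (n = 11) and 56.4 ± 28.9 CPM in T5 (n = 10), a gap beyond the SD, and T9 exceeded T2 in all 7 mice that had both. T9 supplied 57.7% of the Lag3 UMIs of CD8 T cells although it held 369 of the 3092 cells. NK7 held 40.9 ± 22.2 CPM and NK6 3.69 ± 3.78 CPM (n = 12 each).

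Havcr2 was scarce in every T cell and NK class. T9 had 25.2 ± 27.6 CPM (SD, n = 8) and T2 20.0 ± 26.4 CPM (n = 11), and 2 of 8 and 6 of 11 mice had no UMI. No Havcr2 UMI was found in T1 or T4, which allows up to 3.08 CPM in T1 and 0.959 CPM in T4 by 3 UMIs over each class. No 2 neighbours in its order differed by more than the SD, and with the cells of all mice summed T2 stood above T9, at 27.4 CPM in T2 and 19.8 CPM in T9.

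Tigit stood at 289 ± 191 CPM in T9 (SD, n = 8), 243 ± 105 CPM in T6 (n = 12), 151 ± 71.0 CPM in T7 (n = 7) and 138 ± 88.1 CPM in NK7 (n = 12). This order was within the SD over mice, and T9 stood above T6 in 3 of 8 mice. T2, T5 and NK6 held 105, 101 and 77.1 CPM, and T3, T4, T8 and T1 held 47.3, 25.4, 14.1 and 10.3 CPM. Cd160 followed another order, in which NK and CD8 classes came first: 191 ± 96.6 CPM in T9 (n = 8), 116 ± 48.8 CPM in NK7 (n = 12), 82.4 ± 37.6 CPM in T5 (n = 10), 69.0 ± 33.1 CPM in T3 and 44.3 ± 16.8 CPM in NK6 (n = 12 each). T6 held 11.8 CPM of Cd160, so the Foxp3-bearing state carried Ctla4 and Tigit with little Cd160.

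Entpd1 was highest in NK6, at 41.6 ± 17.9 CPM (SD, n = 12), against 20.9 ± 11.1 CPM in T9 (n = 8), a gap beyond the SD, with NK6 above in 6 of 8 mice. T6, T2, T5 and NK7 lay between 17.4 and 12.1 CPM. Tox was found in every class: T9 held 187 ± 59.8 CPM (n = 8), above T6 in 7 of 8 mice by a gap beyond the SD, T6 held 99.8 ± 48.7 CPM (n = 12), and the other 9 classes lay between 83.8 CPM in T2 and 26.9 CPM in NK6.

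**Figure D1:**
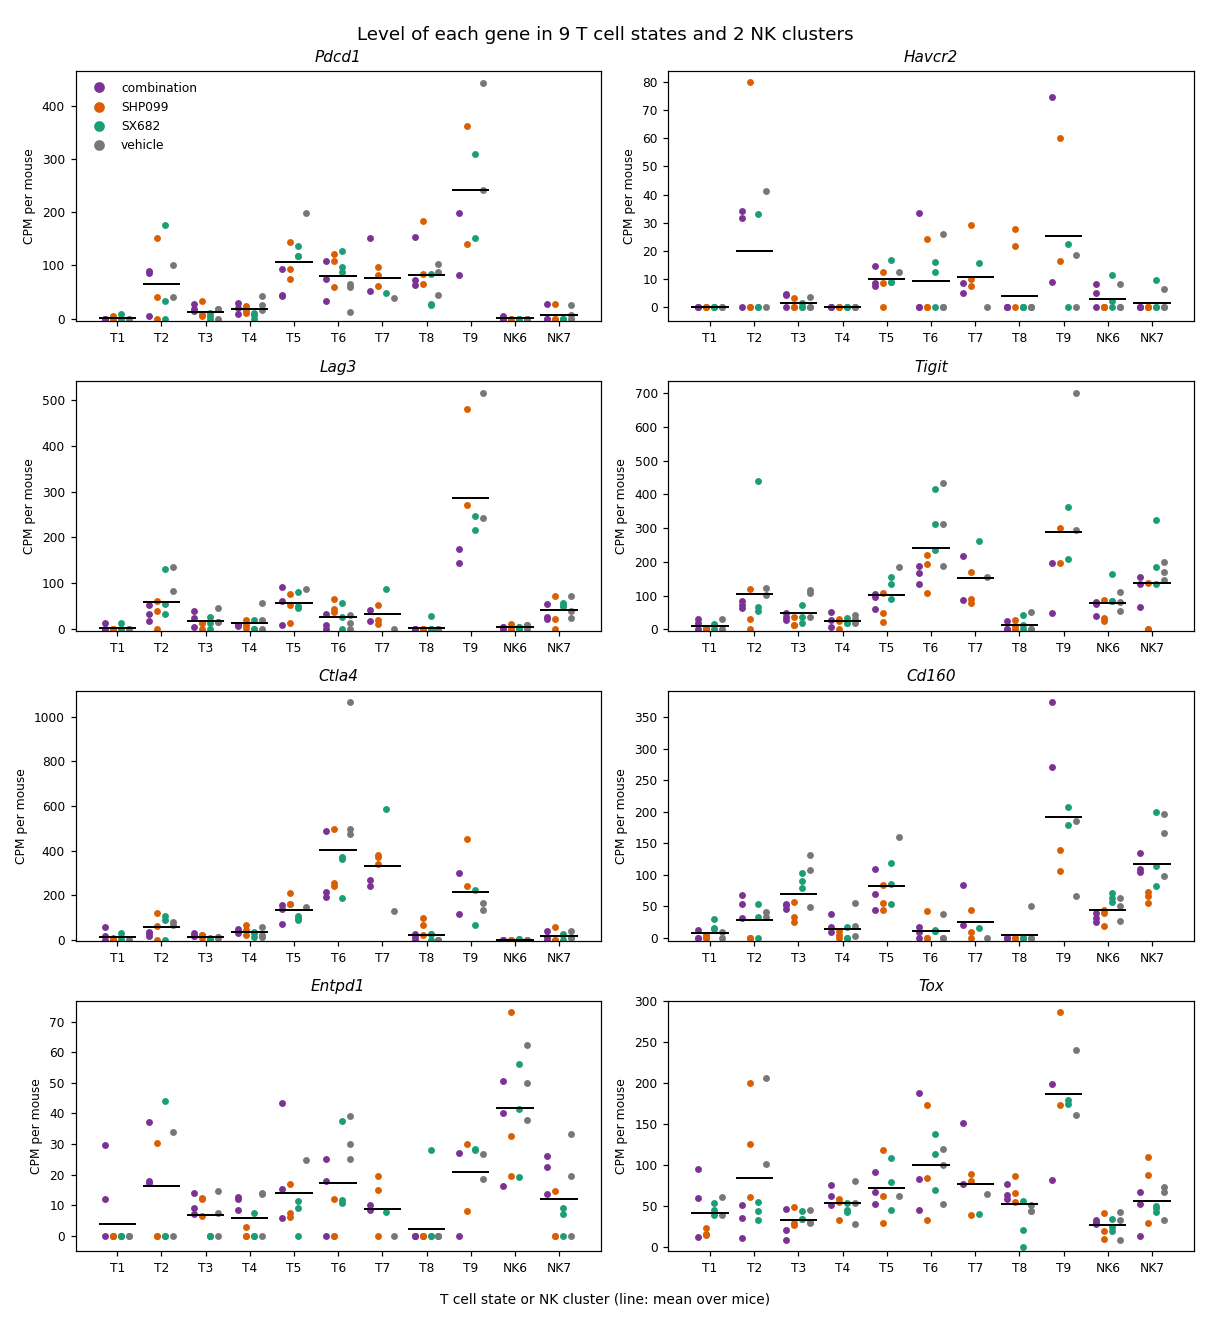
CPM of each gene per mouse (y axis, linear, a scale of its own for each gene) in T cell states T1 to T9 and NK clusters 6 and 7 (x axis), coloured by treatment, with the mean over mice as a black line. The T9 mean is highest for Pdcd1 (241 CPM), Lag3 (287), Tigit (289), Cd160 (191) and Tox (187), the T6 mean for Ctla4 (403) and the NK6 mean for Entpd1 (41.6). For Tigit, Cd160 and Ctla4 the lead over the next class is within the SD over mice.

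Because states differed in UMIs per cell, shares of cells with a UMI were taken after thinning each cell to 1000 UMIs. Thinning kept 357 of 369 T9 cells and 429 of 484 T6 cells, leaving out shallower ones. In T9, 74 of 357 cells (20.7%, exact 95% interval 16.6 to 25.3%) had a Pdcd1 UMI, 72 (20.2%, 16.1 to 24.7%) had Lag3 and 85 (23.8%, 19.5 to 28.6%) had Tigit. In T6, 101 of 429 cells (23.5%, 19.6 to 27.8%) had Ctla4. These intervals cover counting error only. Without thinning, T9 had Pdcd1 in 35.5%, Lag3 in 35.8% and Tigit in 45.0% of cells and T6 had Ctla4 in 36.8%. Tumour cells of clusters 21 and 23, which should lack these genes, had Pdcd1 in 0.0495%, Lag3 in 0.247%, Tigit in 0.247%, Ctla4 in 0.0495% and Cd160 in 0.0247% of 4044 thinned cells, at a median of 10250.5 UMIs before thinning against 2360 in T9, so the T9 and T6 shares stood well above that level. Entpd1 was found in 3.08% of T9 cells (1.55 to 5.45%), against 2.67% of tumour cells and 18.1% of 5305 neutrophils. T2 and NK6 stood above T9, at 3.73% and 4.38%. T6, T5, T7, T3 and T4 had 1.86%, 1.21%, 0.671%, 0.603% and 0.448%, NK7 had 0.946%, and none was found in 463 T1 or 302 T8 cells. Havcr2 was found in 2.80% of T9 cells (1.35 to 5.09%), against 0.816% of tumour cells, 2.02% of neutrophils and 3.40% of the macrophage cluster 26. T2 had Havcr2 in 2.90% of cells and T6 in 1.63%, and the other T cell states had at most 0.909% (T5).

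States T1 to T9, NK6 and NK7 were the source of 64.9% of all Cd160 UMIs in the matrix, 53.8% of Pdcd1, 52.4% of Ctla4, 52.3% of Tox and 51.1% of Tigit. They supplied 31.6% of Lag3, 2.88% of Entpd1 and 2.24% of Havcr2. Cells of clusters 2, 3, 5 and 8 outside the T cell table also carried T cell marker genes and were not counted here. These shares can therefore understate T cells and NK cells: clusters 3, 8 and 5 held 46, 20 and 19 of the 1437 Cd160 UMIs. Entpd1 was highest in the neutrophil clusters 33 and 32, at 620 and 419 CPM over all their cells. Havcr2 stood at 91.1 CPM in cluster 18, whose leading genes are Clec9a and Xcr1 of conventional dendritic cells, and at 142 CPM in the 182 cells of cluster 27, which could not be named. Lag3 reached 106 CPM in cluster 4, whose leading genes are immunoglobulin genes and Jchain. Cluster 9, led by Calca, Il1rl1 and Gata3, held 136 CPM of Pdcd1, above every T cell state but T9 when cells were summed.

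The receptors were also counted together in single cells. After thinning, 25.5% of T9 cells had UMIs of 2 or more of the 7 receptor genes and 10.1% of 3 or more, with up to 5 in 1 cell. T6 and T7 had 2 or more in 13.3% and 12.8% of cells and 3 or more in 1.63% and 1.34%. T5 reached 6.97% for 2 or more, T2 4.15% and NK7 3.07%, and T1, T3, T4, T8 and NK6 had 0.331 to 0.927%. Within T9, Lag3 was found in 23 of 74 cells with Pdcd1 (31.1%) and in 49 of 283 without (17.3%), and Tigit in 27 of 72 cells with Lag3 (37.5%) and in 58 of 285 without (20.4%). Tox was found in 10 of 74 T9 cells with Pdcd1 (13.5%) and in 49 of 283 without (17.3%). In T6, Tigit was found in 15 of 35 cells with Pdcd1 (42.9%) and in 70 of 394 without (17.8%). These are counts over cells of 12 mice and carry no test.

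**Figure D2:**
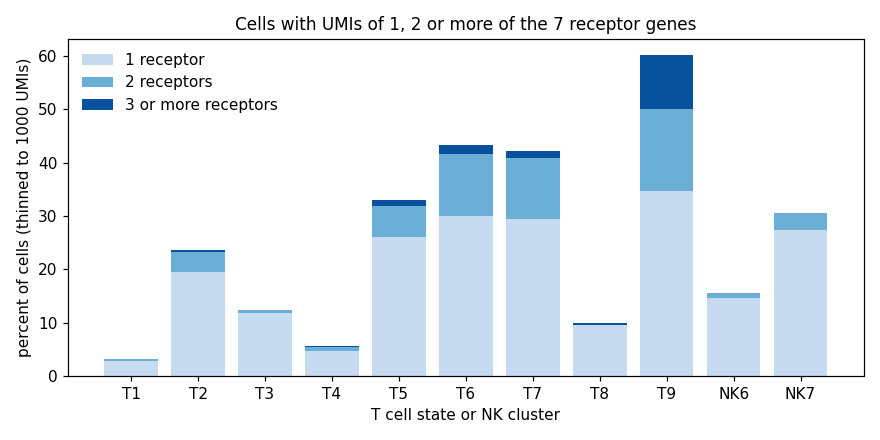
Percent of cells, thinned to 1000 UMIs, with UMIs of 1, 2 or at least 3 of the 7 receptor genes (stacked bars, y axis) in each T cell state and NK cluster (x axis). T9 has the tallest bar, with 25.5% of cells at 2 or more receptors, followed by T6 at 13.3% and T7 at 12.8%.

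Across the mean levels of the 11 classes, 4162 genes that reached 50 CPM in at least 1 class were compared with each of the 8 on log2(CPM + 10). These correlations run over 11 classes that share mice and libraries and are given as a description. Pdcd1 was most like Atxn1 (Pearson r = 0.95), Lxn and Tshz1, and Tox was most like Nrn1 (0.94), Atxn1 and Bcl2a1d, so 1 gene stood on both lists. Lag3 was most like Rgs16 (0.88), Nr4a2 and Nol7, of which Nr4a2 encodes a transcription factor induced by the T cell receptor. Ctla4 was most like Hif1a (0.94), H1f0 and Batf, and Tigit like Vmp1 (0.94), Tnfrsf1b and Rap1a. Cd160 was most like Litaf (0.90), Xcl1, a chemokine of NK cells and CD8 T cells, and Crtam, and Entpd1 like Ssh1 (0.95), Agpat3 and Adora2a, the receptor for adenosine. The genes most like Havcr2, Kdm2b (0.91), Csnk2b and Gdi2, rest on its low counts. Among the 8 genes themselves, Pdcd1 with Tox (0.852) and Lag3 with Tox (0.850) had nearly equal top correlations. Pdcd1 with Havcr2 (0.833), Havcr2 with Tox (0.832) and Ctla4 with Tox (0.829) were close behind. Pdcd1 and Entpd1 had the lowest (0.03).

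The treatments were compared in the sums per mouse with edgeR's quasi-likelihood test, adjusted by Benjamini-Hochberg over all genes tested in a class, and a gene was called at an adjusted p below 0.05. In CD8 T cells 7 of the 8 genes passed the filter on low counts, all but Havcr2. All p-values below with a log2 fold change ± SE come from this test.

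After SHP099, 2 of the 7 genes were called in CD8 T cells and both were lower than with vehicle, where 6.48% of all 6764 genes tested were called. Tigit had 14.4, 64.1 and 59.6 CPM in SHP099 mice 1 to 3, against 91.4, 118 and 241 CPM in vehicle mice 1 to 3. Every SHP099 mouse lay below every vehicle mouse. The log2 fold change was -1.64 ± 0.35 (SE, adjusted p = 0.00495). Cd160 had 25.6, 64.1 and 41.7 CPM in SHP099 mice, against 60.3, 100.5 and 127 CPM in vehicle mice, so that 1 SHP099 mouse stood above the lowest vehicle mouse, and its log2 fold change was -1.08 ± 0.30 (SE, adjusted p = 0.0314). Both calls rest on few mice: without vehicle mouse 3 Tigit had -1.19 (adjusted p = 0.0624), and Cd160 lost its call without SHP099 mouse 1 (-0.83) or 3 (-1.04), without vehicle mouse 2 (-0.99) or 3 (-0.84), and with equal cell numbers per mouse (-0.90, adjusted p = 0.119). Of the other 5 genes, Ctla4 had 0.88 ± 0.37 (adjusted p = 0.153) and was called with no filter (0.93, adjusted p = 0.0167), and Pdcd1, Lag3, Entpd1 and Tox lay between -0.19 and -0.58 with adjusted p of 0.482 or more.

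After the combination none of the 7 genes was called in CD8 T cells, where 3.21% of all genes were. Tigit came close, at 72.4, 67.2 and 52.0 CPM in combination mice against 91.4, 118 and 241 CPM in vehicle mice, groups that did not overlap, with -1.18 ± 0.34 (SE, adjusted p = 0.0519). It was called with no filter (-1.11), with only these treatments fitted (-1.17) and without vehicle mouse 1 (-1.49, adjusted p = 0.0450). It was also called without SHP099 mouse 1 (adjusted p = 0.0180) or 2 (0.0447) and without SX682 mouse 2 (0.0417) or 3 (0.0420). In 7 of 12 fits with 1 mouse left out it stayed uncalled. Without T9, an alternative added after the data were seen, Tigit had -0.58 ± 0.28 (adjusted p = 0.292). Tox, at 51.2, 48.4 and 52.0 CPM in combination mice against 62.2, 52.0 and 80.5 CPM in vehicle mice, had -0.43 ± 0.27 (adjusted p = 0.455). After SX682 none was called either, where 0.251% of all genes were, and the values lay between -0.71 (Entpd1) and 0.33 (Ctla4). By edgeR 1 of the 7 genes after the combination and 0 after SX682 had an unadjusted p under 0.05; DESeq2 called 0 of the 6 genes to which it gave an adjusted p after the combination, and it gave none after SX682.

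Between the combination and each single drug, none of the 7 genes was called in CD8 T cells, where 1.01% of genes were called against SHP099 and 2.71% against SX682. Against SHP099, Cd160 averaged 72.6 ± 21.2 CPM in combination mice and 43.8 ± 19.3 CPM in SHP099 mice (SD, n = 3 each), or 0.73 ± 0.28 (SE, adjusted p = 0.208). Against SX682, where a fit with no filter called Pdcd1 (-0.84) and Tigit (-0.76), Pdcd1 averaged 43.3 ± 20.0 CPM in combination mice and 72.2 ± 30.6 CPM in SX682 mice, or -0.86 ± 0.36 (SE, adjusted p = 0.272). The test of whether the effect of SHP099 differed with and without SX682 called none of the 7 and 0.177% of all genes, with the lowest adjusted p of 0.486 for Entpd1 (1.51 ± 0.75). These misses do not show that the treatments act alike, since the SE of these log2 differences was 0.23 to 0.48 between treatments and 0.35 to 0.75 for the interaction. By edgeR 1, 3 and 0 of the 7 had an unadjusted p under 0.05 against SHP099, against SX682 and in the interaction, and DESeq2 called 0 of the 3 genes with an adjusted p against SX682 and gave no adjusted p in the other comparisons.

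The mix of states differed between the mice, and no test of it was made here. T9, with the highest levels, made up 2.71 to 8.55% of CD8 T cells in combination mice, 3.32 to 17.0% in SHP099 mice, 6.34 to 25.5% in SX682 mice and 5.88 to 24.5% in vehicle mice. T5 made up 13.1 to 23.5% in combination mice and 5.65 to 7.56% in vehicle mice. T9 supplied 49.8% of the Pdcd1 UMIs of CD8 T cells, 57.7% of Lag3, 45.6% of Tigit, 31.9% of Cd160 and 40.5% of Ctla4. T5 supplied 35.8%, 24.6%, 26.5%, 27.3% and 45.5% of the same genes. With T9 left out, an alternative added after the data were seen, SHP099 against vehicle gave -1.67 ± 0.32 for Tigit (adjusted p = 0.000919) and -1.34 ± 0.29 for Cd160 (adjusted p = 0.00369). The combination without T9 gave 1.1 ± 0.32 for Ctla4 against vehicle (adjusted p = 0.0412), 0.89 ± 0.25 for Ctla4 against SX682 (adjusted p = 0.0410) and 1.09 ± 0.30 for Tigit against SHP099 (adjusted p = 0.0428). For Lag3 the combination against vehicle had -0.69 ± 0.46 with T9 and 0.35 ± 0.36 without it, neither called, and for Pdcd1 -0.76 ± 0.41 with T9 and 0.09 ± 0.39 without it.

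**Figure D3:**
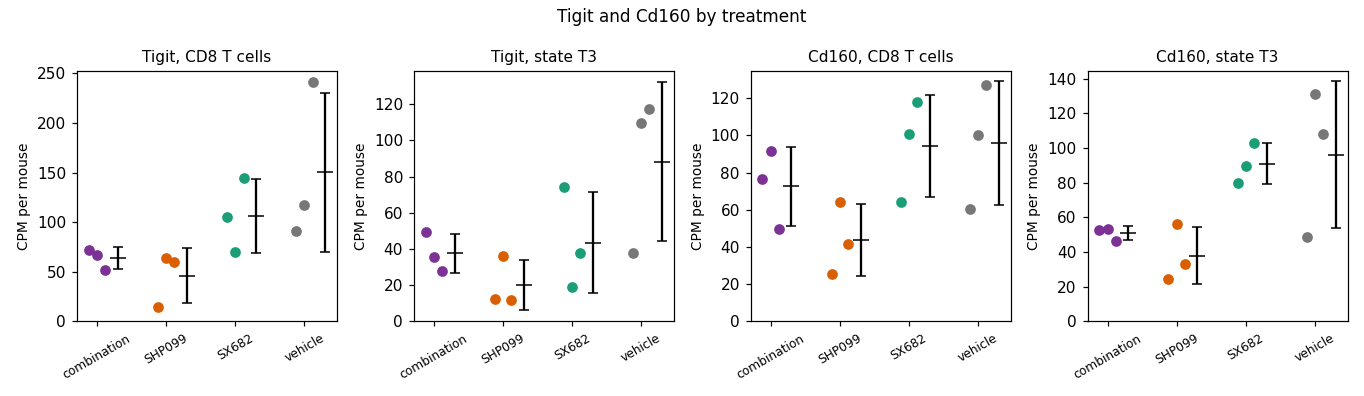
CPM of Tigit and Cd160 per mouse (y axis, linear from 0) in CD8 T cells and in state T3 by treatment (x axis), with the mean and SD of 3 mice beside the points. SHP099 mice lie at 14.4 to 64.1 CPM of Tigit in CD8 T cells, below the 91.4 to 241 CPM of vehicle mice, and combination mice lie at 52.0 to 72.4 CPM.

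Within single CD8 states the comparison was possible in T1, T2, T3 and T9, since too few vehicle mice had 10 cells of T5. The largest state, T3, a CD8 state with Ly6c2, Bcl2 and Cd7 among its leading genes, gave the same 2 calls after SHP099, of 3 genes that passed the filter and 9.20% of all genes. Tigit had 12.3, 36.3 and 12 CPM in SHP099 mice, from 3, 11 and 4 UMIs, against 37.7, 110 and 117 CPM in vehicle mice, or -1.87 ± 0.47 (SE, adjusted p = 0.00631). The groups did not overlap, though the lowest vehicle mouse stood only just above the highest SHP099 mouse. Cd160 had 24.5, 56.1 and 33.0 CPM in SHP099 mice, against 48.9, 131 and 108 CPM in vehicle mice, or -1.14 ± 0.35 (SE, adjusted p = 0.0280), with 1 SHP099 mouse above the lowest vehicle mouse. T3 also carried the NK genes Klre1 and Klrb1c, at 135 and 92.0 CPM, and the gamma delta receptor genes Trdc and Tcrg.C1, at 76.6 and 40.7 CPM, and their part in the result was not tested. T3 cells are 1539 of the 3092 CD8 T cells, so the T3 comparison is not independent of the result above. Tigit lost its call without SHP099 mouse 3 (-1.54) or vehicle mouse 2 (-1.57), and Cd160 without SHP099 mouse 1 (-0.97) or 3 (-1.003), without vehicle mouse 2 (-0.77) or 3 (-1.01), and with no filter (-1.06).

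The combination and SX682 gave no call in T3, where 3.30% and 0.968% of genes were called. Tigit averaged 37.5 ± 10.8 CPM in combination mice, 43.5 ± 28.1 CPM in SX682 mice and 88.2 ± 44.0 CPM in vehicle mice (SD, n = 3 each). Cd160 averaged 50.8 ± 4.07 CPM in combination mice, 90.9 ± 11.8 CPM in SX682 mice and 96.2 ± 42.6 CPM in vehicle mice. In T1 and T2 none of the 8 genes passed the filter, and SHP099, SX682 and the combination called 8.47%, 0.737% and 2.76% of genes in T1 and 4.98%, 0% and 0.199% in T2. Where SX682 called none in T2, 48 of 502 genes had an unadjusted p under 0.05 by edgeR and DESeq2 called 0.

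In T9 only 8 mice had 10 cells, 2 per treatment, after combination mouse 3, SHP099 mouse 1, SX682 mouse 1 and vehicle mouse 2 fell out. There 6 of the 8 genes were tested and none was called, beside 0.123% of all genes after the combination, 0.0616% after SHP099 and 0% after SX682; 216, 232 and 119 of 1624 genes had an unadjusted p under 0.05 after the combination, SHP099 and SX682, and DESeq2 called 2, 4 and 0. After the combination, Pdcd1 had 81.2 and 199 CPM in combination mice against 242 and 443 CPM in vehicle mice, or -1.55 ± 0.60 (SE, adjusted p = 0.303). Lag3 had 144 and 174 CPM in combination mice against 242 and 517 CPM in vehicle mice, or -1.30 ± 0.44 (adjusted p = 0.245), and Tigit had 198 and 49.8 CPM in combination mice against 295 and 702 CPM in vehicle mice, or -1.71 ± 0.52 (adjusted p = 0.222). Tigit was called with no filter (-1.64, adjusted p = 0.0274) and without SX682 mouse 2 (-1.72, adjusted p = 0.0335) or 3 (-1.75, adjusted p = 0.0368). Cd160 stood the other way, at 271 and 373 CPM in combination mice against 67.1 and 185 CPM in vehicle mice, or 1.31 ± 0.42 (adjusted p = 0.226). For these 4 genes, none of the differences passed the test with all 8 mice and the filter. After SHP099, Ctla4 had 452 and 241 CPM in SHP099 mice against 134 and 166 CPM in vehicle mice, or 1.19 ± 0.55 (adjusted p = 0.347).

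In T6, the state with Foxp3, the 3 genes that passed the filter were Ctla4, Tigit and Tox. Ctla4 was called lower after the combination and after SHP099, where 3.22% and 9.12% of all genes were called. It had 192, 215 and 487 CPM in combination mice, 241, 255 and 496 CPM in SHP099 mice, 369, 187 and 362 CPM in SX682 mice and 495, 475 and 1063 CPM in vehicle mice. Mouse 3 of the vehicle group stood far above all others, and mouse 3 of the combination and mouse 3 of SHP099 reached the range of the other 2 vehicle mice. The log2 fold changes were -1.48 ± 0.33 for the combination (SE, adjusted p = 0.0159), -1.11 ± 0.32 for SHP099 (adjusted p = 0.0272) and -1.09 ± 0.29 for SX682 (adjusted p = 0.0807), where 0.754% of genes were called. Without vehicle mouse 3 they were -1.005 (adjusted p = 0.133) for the combination and -0.65 (adjusted p = 0.260) for SHP099, so both calls rest on that mouse. The combination call was also lost without combination mouse 1 (-1.22) or 2 (-1.36) and with equal cell numbers (-1.64), and the SHP099 call without SHP099 mouse 1 (-0.94) or 2 (-0.94).

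Tigit in T6 had 167, 135 and 187 CPM in combination mice, against 313, 188 and 434 CPM in vehicle mice, or -0.98 ± 0.33 (SE, adjusted p = 0.0987), and averaged 321 ± 89.8 CPM in SX682 mice (SD, n = 3). Tox differed by 0.23 or less in size in each comparison. The T6 cells of combination mouse 2 held 7901 CPM of 11 marker genes of other cell types, against 467 and 487 CPM in the other combination mice and 225 to 599 CPM in vehicle mice, and 1 to 8 of the 11 were at 0 in a mouse. Sftpc, a gene of alveolar type 2 cells, was the largest of them over all T6 cells, at 740 CPM. In cells with at most 2 such UMIs Ctla4 had -1.32 after the combination (adjusted p = 0.0180) and -0.99 after SHP099 (adjusted p = 0.0389).

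The effect on Ctla4 differed between T6 and CD8 T cells. In CD8 T cells it had 67.9, 96.8 and 45.2 CPM in combination mice, 49.5, 138 and 68.5 CPM in SHP099 mice and 49.4, 31.2 and 50.8 CPM in vehicle mice. A fit over both classes with the mouse as a block, added after the data were seen, tested the difference itself. The effect in T6 minus that in CD8 T cells was -2.06 ± 0.43 for the combination (SE, adjusted p = 0.0104), -1.92 ± 0.42 for SHP099 (adjusted p = 0.0392) and -1.35 ± 0.41 for SX682 (adjusted p = 0.289), beside 0.339%, 0.0727% and 0.218% of 4126 genes called. None of the other 5 genes tested in it was called, and Havcr2 and Entpd1 were not tested. The CD8 sums join states whose mix differed between mice, and T5 supplied 45.5% of their Ctla4 UMIs and T9 40.5%. In this difference a change of mix cannot be told apart from a change within states. The combination difference lost its call without combination mouse 2 (-1.75) or vehicle mouse 3 (-1.76), and the SHP099 difference without SHP099 mouse 2 (-1.30) or vehicle mouse 2 (-1.90) or 3 (-1.66).

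**Figure D4:**
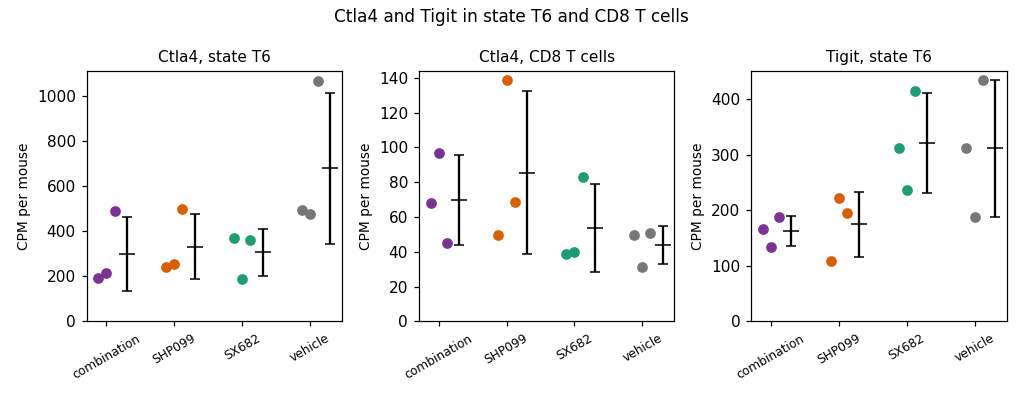
CPM per mouse (y axis, linear from 0) of Ctla4 in state T6, of Ctla4 in CD8 T cells and of Tigit in state T6 by treatment (x axis), with the mean and SD of 3 mice beside the points. Ctla4 in T6 averages 298 CPM in combination mice, 330 in SHP099 mice, 306 in SX682 mice and 678 in vehicle mice, with 1 vehicle mouse at 1063 CPM.

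In NK6 only Tigit, Cd160 and Entpd1 passed the filter, in NK7 only Tigit and Cd160, and none was called, while the combination, SHP099 and SX682 called 5.45%, 11.3% and 0.330% of genes in NK6 and 0.924%, 10.1% and 0% in NK7. Tigit in NK7 had no UMI in SHP099 mice 1 and 2 and 137 CPM in mouse 3, against 200, 170 and 147 CPM in vehicle mice. The groups did not overlap, at 0, 0 and 5 UMIs in SHP099 mice against 30, 26 and 12 UMIs in vehicle mice, and the fitted change was -2.34 ± 0.74 (SE, adjusted p = 0.0512). It was called with no filter (-2.64, adjusted p = 0.000231) and without SX682 mouse 1 (adjusted p = 0.0428) or 3 (adjusted p = 0.0425). Leaving out each mouse gave -7.25 to -1.47, where -7.25 (adjusted p = 0.00201) is the fit without SHP099 mouse 3, which leaves that group at 0 UMIs and gives no bound. Cd160 in NK7 had 65.8, 72.7 and 54.9 CPM in SHP099 mice, from 3, 5 and 2 UMIs. Vehicle mice had 167, 98.0 and 196 CPM, from 25, 15 and 16 UMIs, again without overlap, or -1.14 ± 0.49 (adjusted p = 0.147). The share of all genes whose groups did not overlap was not taken. A lack of overlap alone therefore does not set an uncalled gene apart, here or for Tigit in CD8 T cells after the combination. In NK6 Tigit had 32.6, 26.1 and 88.5 CPM in SHP099 mice, against 112, 79.9 and 53.6 CPM in vehicle mice, or -1.10 ± 0.42 (adjusted p = 0.0887; called without SHP099 mouse 3, -1.58, adjusted p = 0.0317), and Entpd1 in NK6 averaged 41.9 ± 28.0 CPM in SHP099 mice and 50.1 ± 12.3 CPM in vehicle mice (SD, n = 3 each). By edgeR both genes in NK7 and 1 of 3 in NK6 had an unadjusted p under 0.05 after SHP099. None had one after SX682 or the combination. DESeq2 gave an adjusted p only to the 2 genes in NK7 after SX682, and called 0 of them. Over all 1298 genes of NK7, 85 had an unadjusted p under 0.05 after SX682 by edgeR, and DESeq2 called 1.

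**Figure D5:**
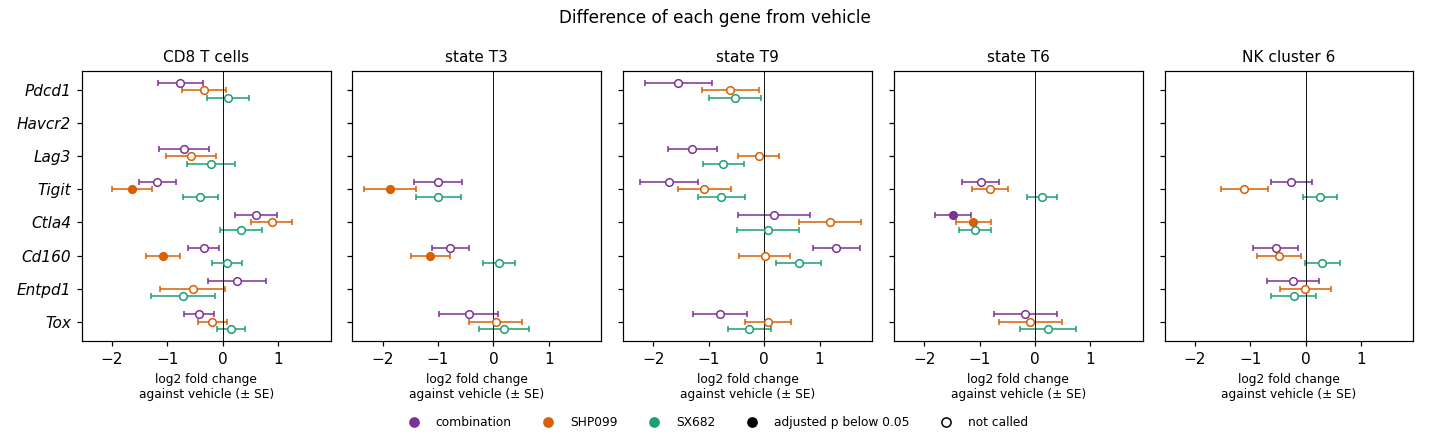
Log2 fold change against vehicle with its SE (x axis, 1 scale for all panels) of each gene (y axis) in CD8 T cells, states T3, T9 and T6 and NK cluster 6, coloured by treatment. Filled points passed an adjusted p of 0.05: Tigit and Cd160 after SHP099 in CD8 T cells and T3, and Ctla4 after the combination and SHP099 in T6; a gene with no point did not pass the filter on low counts.

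Markers of other cells in CD8 T cells summed to 392 to 1176 CPM in combination mice, 265 to 593 CPM in SHP099 mice, 161 to 468 CPM in SX682 mice and 277 to 322 CPM in vehicle mice, over 11 genes of which Lyz2 was the largest and of which 0 to 4 were at 0 in a mouse. In cells with at most 2 of these UMIs SHP099 against vehicle gave -1.61 for Tigit (adjusted p = 0.00492) and -1.13 for Cd160 (adjusted p = 0.0247).

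Genes of the same pathways, 66 in 8 lists, were read in CD8 T cells beside the 8. After SHP099, no gene of any list was called in either direction: 0 of 8 tested among other co-inhibitory receptors (median log2 fold change -0.15), 0 of 7 costimulatory receptors (-0.18), 0 of 14 transcription factors (0.28), 0 of 6 genes of the T cell receptor response (-0.24), 0 of 11 effector genes (-0.45), 0 of 8 naive and stem-like genes (0.19), 0 of 3 phosphatases (-0.10) and 0 of 2 adenosine genes (0.39), beside a median of 0.02 over all genes. After SX682, none was called in any list either. After the combination 1 of 11 effector genes rose, Gzmb, a protease of killer granules, at 237 ± 17.2 CPM in combination mice and 96.9 ± 60.5 CPM in vehicle mice (SD, n = 3 each, CPM on scaled totals), or 1.14 ± 0.24 (SE, adjusted p = 0.00643). In the same comparison 2 of 8 naive and stem-like genes fell, Ccr7 (-1.35 ± 0.27, adjusted p = 0.00578) and Tcf7 (-0.61 ± 0.17, adjusted p = 0.0403), and 1 of 7 costimulatory receptors, Tnfrsf18 (-0.82 ± 0.20, adjusted p = 0.0239).

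Set against SHP099, Gzmb was higher after the combination (1.44 ± 0.22, adjusted p = 0.000487), as were the chemokines Ccl3 (1.75 ± 0.40, adjusted p = 0.0279) and Ccl4 (1.66 ± 0.40, adjusted p = 0.0398), 3 of 11 effector genes in all, and Tcf7 was lower (-0.77 ± 0.16, adjusted p = 0.0112). Against SX682 the combination had higher Gzmb (1.05 ± 0.21, adjusted p = 0.00469) and lower Id3 (-1.20 ± 0.26, adjusted p = 0.00809), a repressor of transcription, 1 of 14 factors tested. None of the 8 other co-inhibitory receptors tested was called in any of these comparisons. The interaction of the drugs called no gene of the lists.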

How the data were processed

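Live cells of dissociated nodules were hashtagged by mouse and pooled by treatment before droplet capture, per the labels' protocols. The deposited single-cell values are UMI counts, not normalized, and the submitters' processing notes name Cell Ranger and mm10. The authors also deposited annotation (other columns: the cluster, T cell state and mouse of a cell). Bulk libraries of Epcam+ cells were not used here.

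UMI counts were summed per mouse and class (mice with at least 10 cells) and tested with edgeR 4.0.16 under R 4.3.3: TMM scaling, filterByExpr, 4 treatments in 1 fit, a two-sided quasi-likelihood test, adjustment by Benjamini-Hochberg over all genes tested and a call below 0.05. The SE is the size of the log2 fold change divided by the root of F. CD8 sums held 106 to 495 cells and 236165 to 1341237 UMIs per mouse, and T6 sums 18 to 79 cells. P-values measure the spread between mice of 1 capture per treatment. The test was checked on simulated data. No doublet caller was run, and the lowest deposited cell had 500 UMIs. Levels by class are unscaled CPM. Shares use cells thinned to 1000 UMIs, with exact (Clopper-Pearson) 95% intervals. Python 3.11.15, numpy 2.4.6 and pandas 2.3.3 handled the tables.

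The 8 genes, the lists and the tests were chosen with earlier results of these data known. Named genes are the 8, up to 4 called genes of a list per CD8 comparison by size of change, and the 3 genes most like each of the 8. Alternatives were DESeq2 1.42.0, its size factors in edgeR, no filter, a minimum count of 30, a block for the mouse number, fits of only the treatments compared, the same number of cells from every mouse, only cells with few UMIs (at most 2) of other cell types, and each mouse left out. The T6 to CD8 difference and the CD8 sums without T9 were added after the data were seen.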

Additional observations from a re-analysis of the deposited data

Results flagged for a closer look

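The effect on Ctla4 differed between state T6 and CD8 T cells of the same mice by a direct test of the difference. The CD8 sums join states whose mix differed between mice, so a change of mix cannot be told apart from a change within states. The log2 difference (effect in T6 minus effect in CD8 T cells) was -2.06 ± 0.43 for the combination against vehicle (SE, edgeR quasi-likelihood test, adjusted p = 0.0104) and -1.92 ± 0.42 for SHP099 against vehicle (adjusted p = 0.0392). The test was chosen after the data were seen. The combination difference was lost without combination mouse 2 (-1.75, adjusted p = 0.0916) or vehicle mouse 3 (-1.76, adjusted p = 0.154). The SHP099 difference was lost without SHP099 mouse 2 (-1.30, adjusted p = 0.762), vehicle mouse 2 (-1.90, adjusted p = 0.0580) or vehicle mouse 3 (-1.66, adjusted p = 0.347).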

How the results depend on the processing

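Numbers of the 8 genes called moved with several settings. In CD8 T cells after SHP099 the count of 2 became 1 with equal cell numbers and 3 with no filter, and ran from 0 to 2 when each mouse was left out. After the combination the count of 0 became 1 with no filter, 1 with both treatments fitted alone, 1 without T9 and 0 to 1 when each mouse was left out. Against SHP099 it became 1 without T9, and against SX682 it became 2 with no filter and 1 without T9. Within CD8 states the 2 calls became 0 with a minimum count of 30, where neither Tigit nor Cd160 was tested in T3. They became 1 with both treatments fitted alone and 1 with equal cell numbers. In these 2 settings Tigit was not tested in T3, and Cd160 was still called (adjusted p = 0.0430 and 0.0317). The calls ran from 0 to 3 when each mouse was left out, and DESeq2 gave no adjusted p for Tigit and Cd160 in T3. In T6 the 2 calls became 1 with equal cell numbers and 0 to 4 when each mouse was left out, and in NK cells the count of 0 became 1 with no filter and 0 to 2 when each mouse was left out. No value turned its direction past a threshold.

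With the replicate block, 1 gene was called in CD8 T cells after the combination, Tigit (-1.11, adjusted p = 0.0242), and Ctla4 was called in T6 after SX682 (-1.18, adjusted p = 0.00177). Mice of the same number were not taken as pairs in the main fit. In CD8 T cells 18 pairs of the same number correlated at -0.038 to 0.0873 (median 0.00687). The 36 pairs of different numbers correlated at -0.100 to 0.0901 (median -0.0119). Of 12 mice, 5 correlated best with a mouse of their own number. Such low correlations cannot settle whether these mice form pairs. Over single genes, 1555 of the alternatives kept direction and side of the threshold, 25 lost a call and 26 gained one. In 88 the direction changed, with no call in either fit. Low counts limit Havcr2 and the states with few cells, and the cause of these changes was not tested.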
